A study of Mus musculus with 6 samples.

Results

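The 10 genes described here are genes of monocytes, found among the 17744 genes of a table on CD8 T cells sorted from mouse spleen. They were picked by symbol. Lyz2, Csf1r, Adgre1 and Cd14 are shared by many monocytes and macrophages and are called broad below, and Fcgr4, Ear2, Ace, Treml4, Cd300e and Tppp3 are characteristic of patrolling monocytes. The choice was made with the difference between ultrasound and control libraries already known. Their values in that contrast are therefore given as a description and support no test.

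RNA-seq covered 3 libraries from control mice, with a wild-type genotype, and 3 from mice whose treatment and genotype fields both read fus irradiation, taken here as focused ultrasound. The cells of all 6 libraries were gated as CD45+ CD3+ CD8a+, and the design text asks for a purity check by flow cytometry before sequencing, whose values per library are not used here. Strain, age, tumour status, ultrasound dose and the time from treatment to sorting are not given in the labels. The labels do not say whether replicates came from separate animals, so p-values measure the spread between these samples.

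Monocytes are phagocytes that arise in the bone marrow and circulate in blood, and the spleen holds a reservoir of them. Classical monocytes enter tissues through Ccr2, whereas patrolling monocytes crawl along the vessel wall and are marked by high Cx3cr1 and a need for the nuclear receptor Nr4a1. Both depend on the transcription factor PU.1, the product of Spi1, and patrolling monocytes need signals through the CSF1 receptor to survive. Neither lineage makes CD3 or CD8 as a T cell does.

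The promoters of these genes were searched for motifs that were chosen with the promoters in view, so the matches are a description. RefSeq promoter entries on GRCm38.p6, the assembly also called mm10, were matched for 6 of the 10 genes, with 7 entries because Ace has 2. The 250 bases before the start are printed for 4 patrolling genes whose lowest ultrasound level exceeded their highest control level. These are chr14:44102404-44102653, chr11:105967698-105967947, chr17:48264045-48264294 and chr1:171018676-171018925, all on the plus strand. Capitals mark AGGAAG, a core recognised by PU.1, on either strand, so that CTTCCT is the same core on the opposite strand.
Ear2: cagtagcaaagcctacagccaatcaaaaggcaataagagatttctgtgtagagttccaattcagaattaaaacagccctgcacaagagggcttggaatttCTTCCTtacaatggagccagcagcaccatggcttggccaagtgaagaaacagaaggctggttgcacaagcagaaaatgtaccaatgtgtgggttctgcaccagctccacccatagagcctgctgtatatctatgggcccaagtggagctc
Ace: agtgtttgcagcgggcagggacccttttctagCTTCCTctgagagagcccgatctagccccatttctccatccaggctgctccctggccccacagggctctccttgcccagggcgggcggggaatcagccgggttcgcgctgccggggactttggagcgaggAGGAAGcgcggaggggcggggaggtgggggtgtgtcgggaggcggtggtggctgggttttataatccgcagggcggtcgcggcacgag
Treml4: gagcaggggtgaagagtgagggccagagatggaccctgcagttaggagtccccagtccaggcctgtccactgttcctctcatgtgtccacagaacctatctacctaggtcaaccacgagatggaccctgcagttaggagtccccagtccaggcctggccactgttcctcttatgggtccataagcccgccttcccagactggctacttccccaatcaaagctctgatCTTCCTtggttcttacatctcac
Fcgr4: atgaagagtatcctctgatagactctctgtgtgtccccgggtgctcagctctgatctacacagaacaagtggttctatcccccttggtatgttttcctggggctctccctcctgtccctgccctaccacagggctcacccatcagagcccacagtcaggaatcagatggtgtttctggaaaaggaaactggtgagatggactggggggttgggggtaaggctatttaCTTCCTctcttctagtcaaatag

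The core AGGAAG was present in 6 of the 7 promoter entries and in 29.5% of 32851 promoters of the same length. It lay at 23 bases before the start in both Treml4 and Fcgr4, at 150 in Ear2, and at 88 and 218 in Ace. Cd300e held 3 copies and Lyz2 held 2. The second, internal start of Ace was the entry without one. TTGCNNAA, read by C/EBP factors, was found only in Ear2 (9.56% of all promoters), GAAA repeated after any 2 bases, read by interferon regulatory factors, only in Fcgr4 (2.98%), and AAAGGTCA, read by Nr4a receptors, in none of the 7 (1.34%). Both strands were searched for each motif. A match describes letters and shows no binding.

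Libraries held 35024080 to 38113103 reads counted on the 17744 listed genes, recovered from the deposited values. Cd3e, Cd8a and Cd8b1, which define the sorted cells, stood at 165 to 562 FPKM (fragments per kilobase of gene, scaled to library depth) in every library. Ultrasound 2 and ultrasound 3 stood apart from the rest, with 0.954% and 0.937% of reads from mitochondrial genes against 2.05% to 2.70% in the other 4 libraries. The labels name no batch, and this split leaves ultrasound 1 alone to be compared with the 3 controls. In bulk samples a changed number of cells of one type and changed RNA per cell cannot be told apart.

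Among the broad genes Lyz2 was the most abundant. It encodes lysozyme M, an enzyme that cuts bacterial cell walls and is made by monocytes, macrophages and neutrophils, and it lies at chr10:117277331-117282321. Its level was 499, 209 and 207 FPKM in controls 1, 2 and 3 and 1430.2, 1513 and 2721 FPKM in ultrasound 1, 2 and 3. Every ultrasound library was above every control, the lowest by 2.87 times the highest control. By FPKM Lyz2 ranked 124th, 245th and 255th of all genes in the controls, and 41st, 46th and 10th in ultrasound 1, 2 and 3. Its level was 0.683 to 1.59 times that of Cd8a in the controls and 4.91 to 10.8 times in the ultrasound libraries.

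Csf1r, the receptor for CSF1 and IL-34 on chromosome 18, had 65.9, 38.8 and 30.5 FPKM in the controls and 102, 135 and 199.9 FPKM in ultrasound 1, 2 and 3. The groups did not overlap. Adgre1, which encodes the macrophage surface receptor F4/80 (chr17:57358691-57483527), had 14.2, 9.01 and 8.01 FPKM in controls and 14.5, 26.6 and 29.5 FPKM in ultrasound 1, 2 and 3. For Adgre1 the separation was slight, because ultrasound 1 exceeded control 1 by 1.02 times.

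Cd14, the lipopolysaccharide co-receptor, also on chromosome 18, departed from the other broad genes. Control levels were 10.8, 3.71 and 4.25 FPKM, and ultrasound 1, 2 and 3 had 25.3, 10.1 and 15.9 FPKM. The groups overlapped, since ultrasound 2 fell below control 1. Cd14 was the only one of the 10 genes whose highest ultrasound level was in ultrasound 1, as it was for 41.3% of all genes tested.

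Among the patrolling genes Ear2 had the highest level. It encodes a ribonuclease of the eosinophil-associated family (chr14:44102654-44103534) and had 25.9, 11.1 and 13.2 FPKM in the controls against 53.2, 71.8 and 87.7 FPKM in ultrasound 1, 2 and 3. Ace, angiotensin-converting enzyme (chr11:105967945-105989964), had 14.0, 6.22 and 6.02 FPKM in controls and 23.0, 48.3 and 87.4 FPKM in ultrasound 1, 2 and 3. Both genes were separated between groups, and Ace spread more among ultrasound libraries, with ultrasound 2 and 3 averaging 2.94 times ultrasound 1.

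Treml4, a receptor of the TREM-like family that binds dead cells (chr17:48264295-48275360), had 14.4, 7.53 and 6.01 FPKM in controls and 24.8, 40.3 and 63.3 FPKM in ultrasound 1, 2 and 3. Fcgr4, an activating receptor for IgG (chr1:171018920-171029761), had 18.0, 8.43 and 5.80 FPKM in controls and 26.3, 37.7 and 56.8 FPKM in the ultrasound libraries in the same order. Both were separated between groups and ordered alike among the ultrasound libraries. The ratio of Fcgr4 to Treml4 stayed between 0.897 and 1.25 in all 6 libraries.

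Tppp3, a tubulin polymerization-promoting protein (chr8:105467493-105471526), had 7.08, 2.23 and 3.52 FPKM in controls and 26.4, 19.1 and 49.8 FPKM in ultrasound 1, 2 and 3. It had the largest ratio of group means among the 10 genes, at 7.43, and was the only patrolling gene whose lowest ultrasound level was not in ultrasound 1. Cd300e, an activating receptor of the CD300 family (chr11:115051917-115062177), had 4.42, 3.57 and 2.19 FPKM in controls, 3.58 FPKM in ultrasound 1, and 18.4 and 26.1 FPKM in ultrasound 2 and 3. Ultrasound 1 thus lay inside the control range for Cd300e, and ultrasound 2 and 3 averaged 6.21 times its level.

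**Figure D1:**
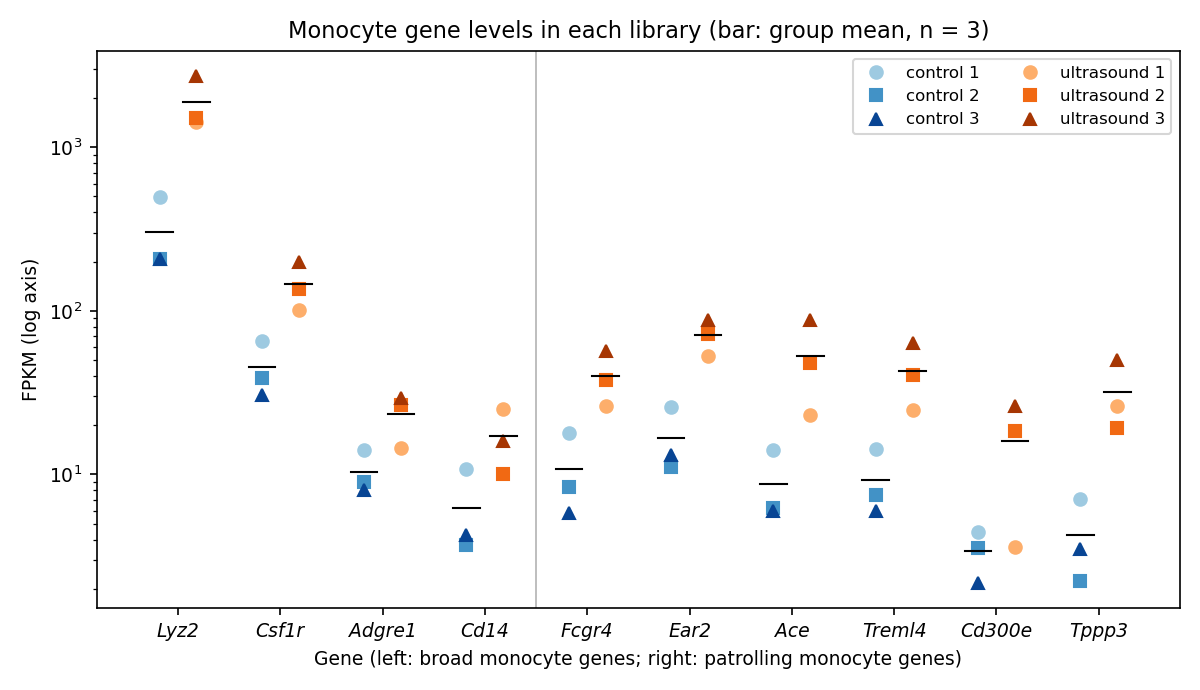
FPKM of the 10 genes in each of the 6 libraries, on a log axis, with one point per library and a bar at each group mean (n = 3). Control 1 is the highest control for all 10 genes, and ultrasound 1 sits inside the control range for Cd300e.

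The order of levels per length differed little between groups at the top. Mean control levels were 305 ± 168 FPKM for Lyz2, 45.1 ± 18.5 for Csf1r and 16.7 ± 8.01 for Ear2 (SD, n = 3). Fcgr4, Adgre1, Treml4 and Ace followed at 10.7 ± 6.42, 10.4 ± 3.32, 9.30 ± 4.44 and 8.75 ± 4.56 FPKM, neighbours whose means differed by less than their SDs. Cd14, Tppp3 and Cd300e closed the order at 6.26 ± 3.95, 4.28 ± 2.52 and 3.39 ± 1.13 FPKM. In the ultrasound libraries Lyz2 (1888 ± 723), Csf1r (146 ± 49.9) and Ear2 (70.9 ± 17.2) were again the highest. Ace came next at 52.9 ± 32.4 FPKM, above Treml4 at 42.8 ± 19.4 and Fcgr4 at 40.2 ± 15.4, again within their SDs. Tppp3 had 31.8 ± 16.0, Adgre1 23.5 ± 7.92, Cd14 17.1 ± 7.67 and Cd300e 16.0 ± 11.5 FPKM.

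All 10 genes passed the filter of at least 1 FPKM in 3 libraries, and all were above 1 FPKM in each of the 6. On the log2(FPKM + 1) scale, which understates changes of low genes, the difference of ultrasound minus control was positive for all 10, from 1.08 (SE 0.30) for Adgre1 to 2.69 (SE 0.40) for Lyz2. The median was 1.98, against 0.09 over the 10655 genes tested. For 8 of the 10 genes every ultrasound library was above every control, which held for 25.9% of all genes tested. In a limma fit across all genes, 7 of 10 had an adjusted p under 0.05, where 6.55% of all genes were called higher and 8.11% in either direction. Adgre1, Cd14 and Cd300e were not called. In the authors' deposited table all 10 had a q under 0.05 with a higher ultrasound level, as did 7.3% of its genes. These counts restate the contrast from which the genes were proposed.

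The counts moved with single libraries. Without ultrasound 1, 9 of 10 genes were called, Cd14 being the exception, but so were 34.1% of all genes as higher. Without control 2, control 3, ultrasound 2 or ultrasound 3, 0 of 10 were called, as were 0 of all genes by limma, with 1962, 2154, 2058 and 1998 genes at an unadjusted p under 0.05. With median-of-ratios size factors 4 of 10 were called, where 2.63% of all genes were called higher.

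Control 1 carried more of these transcripts than its fellow controls. It was the highest control for 10 of 10 genes, a place it held for 36% of all genes tested, and at least 1.5 times both others for 9 of 10, which held for 4.88%. The ratio of control 1 to the mean of controls 2 and 3 ran from 1.54 for Cd300e to 2.72 for Cd14. Without control 1, 7 of 10 genes were called (4.71% of all genes called higher) and the median difference was 2.35.

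The ultrasound libraries were compared class by class. Against the control mean, the 4 broad genes had a median log2 difference of 1.61 in ultrasound 1, between 1.47 in ultrasound 2 and 1.83 in ultrasound 3. The 6 patrolling genes had 1.40 in ultrasound 1, below 2.11 and 2.69 in ultrasound 2 and 3. By count the classes were alike: 3 of 4 broad genes, Cd14 being the exception, and 5 of 6 patrolling genes were lowest of the 3 ultrasound libraries in ultrasound 1 (47.4% of all genes). Adgre1, a broad gene, stood at 0.48 in ultrasound 1 against 1.31 and 1.46 in ultrasound 2 and 3. Over both classes 9 of 10 were highest of all 6 libraries in ultrasound 3 (25.2%). When ultrasound 1 alone was set against the 3 controls, 0 of 10 genes were called by limma, where 0.282% of all genes were called higher and 2158 had an unadjusted p under 0.05. All 10 differences there were positive, with a median of 1.40, and the single library is assumed to vary like the controls.

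**Figure D2:**
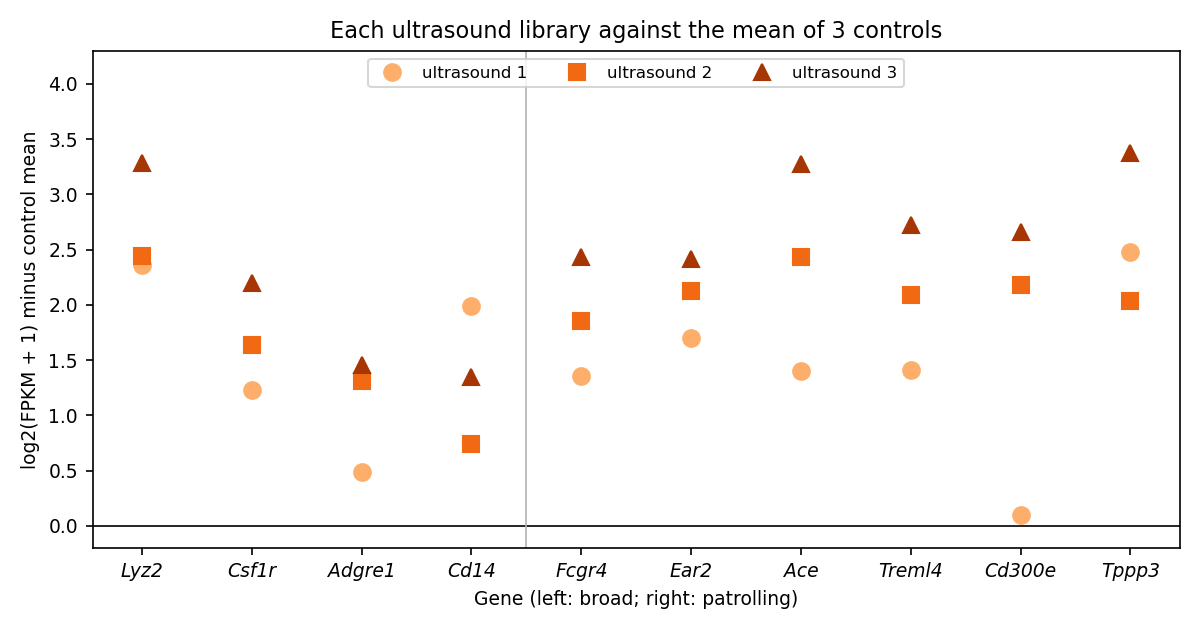
Difference in log2(FPKM + 1) between each ultrasound library and the mean of the 3 controls for each gene, with one point per ultrasound library. Cd300e lies at 0.09 in ultrasound 1 against 2.18 and 2.66 in ultrasound 2 and 3, and Cd14 is the gene with ultrasound 1 on top.

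The balance of the classes was computed as the mean log2(FPKM + 1) of the patrolling genes minus that of the broad genes. It was -1.91, -1.87 and -1.88 in controls 1, 2 and 3 and -2.00 in ultrasound 1, against -1.30 and -1.15 in ultrasound 2 and 3. Control 1 kept the balance of the other controls at a higher level of both classes. The gap between the mean of ultrasound 2 and 3 and ultrasound 1 was 0.77 and depended on Cd14. Without Cd14 the gap was 0.36, with balances of -2.60, -2.67 and -2.61 in controls 1, 2 and 3 and -2.58, -2.30 and -2.13 in ultrasound 1, 2 and 3. Without Cd300e it was 0.52, and with any one of the other 8 genes left out it was 0.69 to 0.98. Single pairs of genes differed from one another. The ratio of Cd14 to Ace was 0.597 to 0.771 in controls and 1.10 in ultrasound 1 against 0.209 and 0.182 in ultrasound 2 and 3, whereas the ratio of Fcgr4 to Csf1r was 0.190 to 0.273 in controls and 0.258, 0.279 and 0.284 in ultrasound 1, 2 and 3, with no split. Mitochondrial reads split the libraries in the same way, and their part in the balance was not tested.

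**Figure D3:**
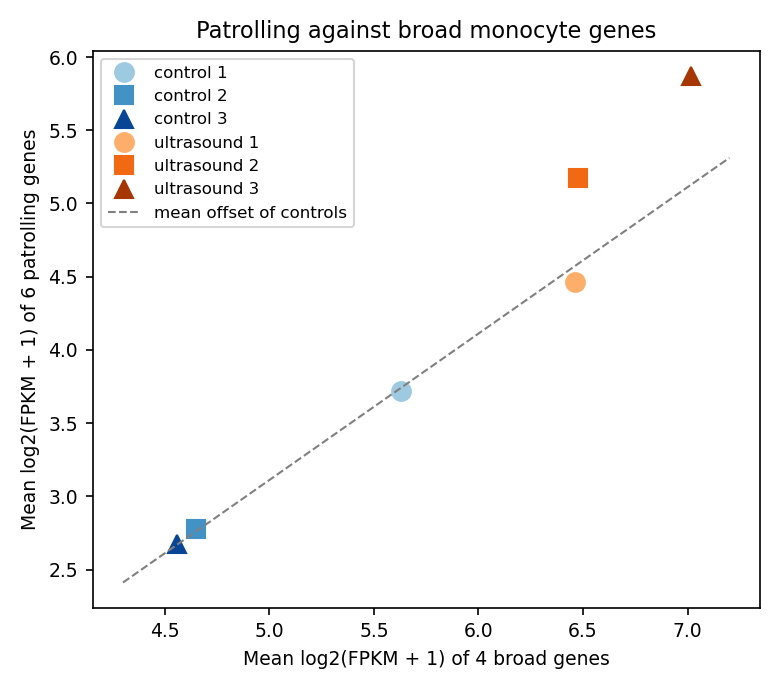
Mean log2(FPKM + 1) of the 6 patrolling genes against that of the 4 broad genes, with one point per library and a dashed line at the mean offset of the controls. Ultrasound 2 and 3, at balances of -1.30 and -1.15, lie above the line, and ultrasound 1 at -2.00 lies just under it. Without Cd14 the gap between them falls from 0.77 to 0.36.

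Across the 6 libraries the levels of the 10 genes ran closely together. Pearson's r over 45 pairs had a median of 0.951 and ranged from 0.397 between Cd14 and Cd300e to 0.998 between Csf1r and Treml4. The pairs share the same 6 libraries and the same group difference, so r is a description. The genes most like the broad class were Fcer1g, Tpd52, Fgr, Clec4a1 and Spi1, each with r of 0.999 or more. Fcer1g encodes the signalling chain of activating Fc receptors, and Fgr a Src-family kinase of myeloid cells. Those most like the patrolling class were Man2b1, Ehd4, Lrrc25, Gabarap and Rassf4, with r of 0.998 or more. Man2b1 is a lysosomal mannosidase and Gabarap an autophagy protein. The log2 differences of Man2b1, Ehd4, Lrrc25, Gabarap and Rassf4 were 0.65, 1.16, 1.91, 0.62 and 1.52. Those of the patrolling genes were 1.64 to 2.63, as r takes no account of the size of a change. An r above 0.95 was shared by 492 tested genes for the broad class and 684 for the patrolling class.

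Among 11 other genes of classical monocytes, 7 rose and none fell by limma (adjusted p under 0.05; 6.55% of all genes higher and 1.56% lower), with a median log2 difference of 1.86. Ccr2, which classical monocytes use to leave the marrow, named after its values were seen, rose by 1.42 (SE 0.23, limma adjusted p 0.0305). Hp, haptoglobin, which neutrophils also make, rose by 2.63 (SE 0.39, limma adjusted p 0.0304), F13a1, a coagulation factor subunit, by 2.31 (SE 0.35, limma adjusted p 0.0304), and Ccl9, a chemokine, by 1.97 (SE 0.43, limma adjusted p 0.0430). Ly6c2, the classical monocyte antigen that memory CD8 T cells also carry, differed by 0.17 (limma adjusted p 0.628). Chil3, a chitinase-like secreted protein, had 18.0 to 67.9 FPKM in controls and 887, 95.5 and 212 FPKM in ultrasound 1, 2 and 3 (log2 difference 3.04, limma adjusted p 0.0715). Chil3 thus peaked in ultrasound 1, the library in which Cd14 was also highest. Chil3 is also made by neutrophil precursors.

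Of 11 other genes associated with patrolling monocytes, 2 rose and none fell (6.55% of all genes rose), with a median log2 difference of 0.71. For 6 of them all ultrasound libraries exceeded all controls, against 25.9% of all genes, and for 1, Nr4a1, all were below, a place held by 8.96% of all genes. Adgre4, an adhesion receptor related to F4/80, rose by 1.54 (SE 0.28, limma adjusted p 0.0315) and Tcf7l2, a transcription factor, by 0.71 (SE 0.15, limma adjusted p 0.0430). Tcf7l2 had 0.380 to 0.746 FPKM in controls and 1.19 to 1.89 FPKM in ultrasound libraries. It passed the filter only through the ultrasound libraries, so its call is a description. With FPKM of at least 1 in every library, 1 gene of this list rose, where 5.71% of all genes were called higher. Itgal and Spn, which T cells make in quantity, differed by 0.46 and 0.36 (limma adjusted p 0.146 and 0.107). Cx3cr1, the fractalkine receptor, named after its values were seen, had 3.80 to 4.26 FPKM in controls, 5.18 in ultrasound 1, and 30.8 and 40.1 FPKM in ultrasound 2 and 3. Its pattern resembled that of Cd300e, with ultrasound 1 near the controls (limma adjusted p 0.102). Nr4a1, also named after its values were seen, had 109 to 201 FPKM in controls and 40.7 to 77.8 FPKM in ultrasound libraries (log2 difference -1.17, limma adjusted p 0.0660). Its control levels were above those of Csf1r, at 30.5 to 65.9 FPKM. Which cells the Cx3cr1 and Nr4a1 reads came from was not tested. Without ultrasound 1, 10 of the 11 rose and 1 fell, where 34.1% of all genes rose and 5727 of 10655 were called in either direction.

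Of 8 transcription factors of the myeloid lineage, 4 rose and 1 fell (6.55% of all genes higher and 1.56% lower). Their median log2 difference was 1.09. Spi1, which encodes PU.1, rose, with 35.0, 15.4 and 13.9 FPKM in controls 1, 2 and 3 and 66.1, 78.4 and 116 FPKM in ultrasound 1, 2 and 3 (log2 difference 2.05, SE 0.37, limma adjusted p 0.0312). Irf5, a factor of inflammatory gene expression, rose by 1.72 (SE 0.29, limma adjusted p 0.0311). Klf4, which monocytes need and which quiescent T cells also express, fell by 1.36 (SE 0.21, limma adjusted p 0.0304), from 24.3 to 28.0 FPKM in controls to 6.36 to 11.8 FPKM in ultrasound libraries. Cebpb differed by 0.30 (limma adjusted p 0.505).

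Of 16 genes shared by most myeloid cells, 11 rose and none fell (6.55% of all genes higher and 1.56% lower). Their median log2 difference was 1.53. Itgam, the integrin chain CD11b, rose by 2.18 (SE 0.40, limma adjusted p 0.0316). Fcer1g and Tyrobp, which are signalling adaptors, rose by 1.94 (limma adjusted p 0.0322) and 1.92 (limma adjusted p 0.0447), and Cst3, a secreted protease inhibitor, by 1.56 (limma adjusted p 0.0440). With median-of-ratios size factors 5 of the 16 rose, where 2.63% of all genes were called higher. Control 1 was the highest control for 16 of 16, a place it held for 36% of all genes tested.

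Around Cd14, 12 of 13 genes of Toll-like receptor signalling were tested. Of these 4 rose while none fell (6.55% of all genes higher and 1.56% lower), with a median log2 difference of 0.50. Ticam2, an adaptor of Tlr4, rose by 0.93 (limma adjusted p 0.0489), Tlr6, a partner of Tlr2, by 0.73 (limma adjusted p 0.0304), Tirap, an adaptor, by 0.72 (limma adjusted p 0.0338) and Myd88, the adaptor common to most of these receptors, by 0.51 (limma adjusted p 0.0304). Tlr4, the receptor that Cd14 serves, named after its values were seen, differed by 0.72 (limma adjusted p 0.0982) at 0.414 to 2.66 FPKM. Irak1, a kinase of the pathway, differed by 0.03 (limma adjusted p 0.857), and its sign turned with median-of-ratios size factors, where it was -0.10. With those factors 1 of the 12 rose, where 2.63% of all genes were called higher.

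Relatives of the 10 genes showed which family members were measured. Of 27 listed, 24 were in the table and 16 were tested. Of the 16 tested, 8 rose and none fell (6.55% of all genes higher and 1.56% lower), with a median log2 difference of 1.27. Cd300lg, among these 8, had 0.218 to 0.498 FPKM in controls and 1.26 to 2.75 FPKM in ultrasound libraries. It passed the filter only through the ultrasound libraries, so its call is a description. With FPKM of at least 1 in every library, 6 relatives rose, where 5.71% of all genes were called higher. Among Fc receptors Fcgr3, an activating receptor, rose by 2.08 (limma adjusted p 0.0304) and Fcgr2b, the inhibitory one that B cells also make, by 1.75 (limma adjusted p 0.0420). Trem3, a receptor related to the TREM-like protein Treml4, rose by 2.01 (limma adjusted p 0.0297), Cd300ld, a CD300 receptor, by 1.98 (limma adjusted p 0.0385), and Adgre5, which T cells make as CD97, by 0.72 (limma adjusted p 0.0407). Ear1 and Ear6, close copies of Ear2, reached at most 0.199 and 0.279 FPKM. Lyz1, a close copy of Lyz2, had 2.78 to 9.25 FPKM. Reads that match such copies equally well can be lost or misplaced in counting, so the levels of Ear2 and Lyz2 are uncertain to that extent.

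Markers of several other cell types moved with these genes, and their part in the results was not tested. Every ultrasound library was above all controls for 25.9% of all genes tested, the share beside which the counts of tested marker genes stand. Some lists also hold genes too low to be tested, which that share does not cover. Of 12 neutrophil genes, 9 separated the groups with ultrasound on top, and their summed level was 197 to 593 FPKM in controls and 2529, 655 and 685 FPKM in ultrasound 1, 2 and 3. Red pulp macrophage genes, among them Spic and Hmox1, were above every control for 8 of 10, C1qa and Cd5l being the exceptions. Their sums were 209 to 384 FPKM in controls and 464 to 660 FPKM in ultrasound libraries. Both lists had their highest control sum in control 1, at 593 and 384 FPKM. B cell genes went differently, with 0 of 8 above every control (0 of 7 tested) and sums of 204 to 313 FPKM in controls, 152 in ultrasound 1, and 810 and 699.7 FPKM in ultrasound 2 and 3. Dendritic cell genes, with 1 of 8 above every control (1 of 4 tested), summed to 8.42 to 19.7 FPKM in controls, 11.8 in ultrasound 1, and 39.1 and 37.3 FPKM in ultrasound 2 and 3. No gene of these 4 lists was at 0 in any library.

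The sum of 6 natural killer cell genes was 36.5 to 44.5 FPKM in controls and 29.1, 58.7 and 48.1 FPKM in ultrasound 1, 2 and 3, with 3 of 6 genes above every control (2 of 5 tested). Most of that sum was Eomes, which CD8 T cells also make, at 32.0 to 39.9 FPKM in controls and 19.6 to 31.7 FPKM in ultrasound libraries. The other 5 genes summed to 4.52 to 6.37 FPKM in controls and 9.42, 27.0 and 23.9 FPKM in ultrasound 1, 2 and 3. Eosinophil, basophil and mast cell genes, relevant to Ear2 by its family name, summed to 3.75 to 6.39 FPKM in controls and 9.87 to 12.0 FPKM in ultrasound libraries, with 6 of 8 above every control (2 of 3 tested). Mcpt8, among the 3 tested, had 0.0503 to 0.125 FPKM in controls and passed the filter only through the ultrasound libraries. Ms4a2 and Fcer1a were at 0 in 1 control each. Erythroid and platelet genes did not follow, with 2 of 8 above every control and 1 below (1 and 0 of 5 tested), and sums of 64.6 to 101 FPKM in controls and 89.9, 53.0 and 52.4 FPKM in ultrasound 1, 2 and 3. The 9 T cell genes measured, Ptprc and Cd4 among them, summed to 2554 to 2673 FPKM in controls and 2239 to 2657 FPKM in ultrasound libraries. Of these, 0 were above every control and 1 below. Single genes moved apart within the sum. Cd3e had 191 to 209 FPKM in controls and 165, 310 and 288 FPKM in ultrasound 1, 2 and 3. Ptprc had 417 to 485 FPKM in controls and 431, 330 and 300 FPKM in ultrasound 1, 2 and 3.

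**Figure D4:**
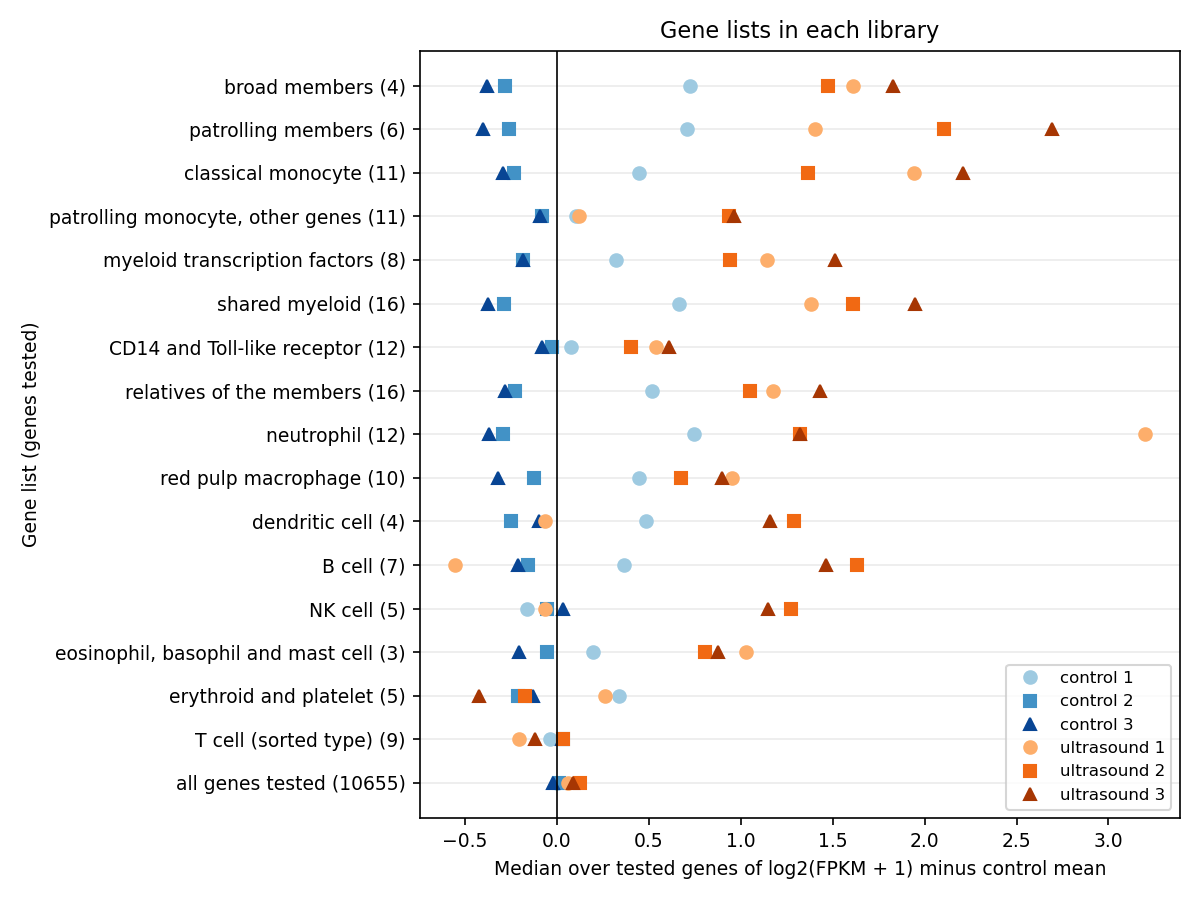
Median over the tested genes of each list of log2(FPKM + 1) minus the control mean, with one point per library and the number of tested genes in brackets. The neutrophil list is highest in ultrasound 1, the patrolling genes reach 2.69 in ultrasound 3, and the median of all genes tested stays between -0.02 and 0.13.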

How the data were processed

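The authors' tools, per the submitters' processing notes, include HISAT2, HTSeq, DESeq2, R 3.2.0 and build mm10, with no role or order. The labels name TRIzol extraction and a VAHTS Universal library kit. FPKM values per library were made by the authors, per the file headers. The deposited table also holds signal columns, the means of DESeq2 normalized counts over groups, a fold change as a ratio, its log2, and a p-value and q-value, all from the authors per the file headers.

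Groups come from the sample titles. Whole reads were recovered from the relation between FPKM and the group means: 100% of 42739 values under 200 reads lay within 0.05 of a whole number. The labels name no molecular identifiers, and depth speaks to counting error only. Differences in log2(FPKM + 1) were fitted with limma 3.58.1 under R 4.3.3, using its trend and robust options, over the 10655 genes that reached 1 FPKM in 3 or more libraries. Tests were two-sided, with Benjamini-Hochberg adjustment over all of them at 0.05. Genes under 1 FPKM in every control could pass the filter through the ultrasound libraries alone. The fit was run on simulated data in which all libraries of a group varied alike, unlike ultrasound 1 against ultrasound 2 and 3 here. That run cannot show how the fit behaves on these libraries. Tables and figures used Python 3.11.15, numpy 2.4.6, pandas 2.3.3 and matplotlib 3.10.9. Gene positions came from GENCODE M21 and promoters from RefSeq on GRCm38.p6.

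The 10 genes and the lists were chosen with earlier results of these data known, and the motifs with the promoters in view. Named genes are the 10, in each list the 3 largest changes past the threshold and the 2 highest in level, and the 5 most like each class, plus family relatives of the 10. Genes named outside this rule are marked, apart from single genes of the cell type marker lists. Alternatives covered scaling, pseudocount, filters, the robust option, a replicate block, voom on recovered reads, the authors' values and each library left out. Ultrasound 1 alone against the controls, and leaving out control 1 with ultrasound 1, were added after the data were seen, as were the class balance without each of the 10 genes and the natural killer cell sum without Eomes.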

Additional observations from a re-analysis of the deposited data

How the results depend on the processing

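All 10 monocyte genes kept a positive difference in each of the 170 values from 17 alternatives. Over the 45 named genes, 453 of 763 values stayed on their side of the threshold, 287 lost it, 17 gained it and 6 changed sign, namely Irak1 with median-of-ratios size factors (-0.098), upper-quartile factors (-0.086), without ultrasound 1 (-0.040), without control 1 and ultrasound 1 (-0.028) and in the authors' deposited table (-0.097), and Ly6c2 with ultrasound 1 alone against the controls (-0.37).

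Counts past the threshold in either direction follow. The limma fit described above gave 7 monocyte, 7 classical, 2 other patrolling, 5 transcription factor, 11 shared myeloid, 4 Toll-like receptor and 8 relative genes, where 8.11% of all genes were called. With no filter on low values and with the replicate block each of the 7 counts was 0, as limma called 0 genes in all, with 4216 and 3249 genes at an unadjusted p under 0.05. With median-of-ratios size factors the counts were 4 monocyte, 5 classical, 1 other patrolling, 4 transcription factor, 5 shared myeloid, 1 Toll-like receptor and 3 relative genes, and with upper-quartile factors 5, 5, 1, 4, 5, 3 and 5 in the same order. These settings called 468 of 10649 and 577 of 10656 genes in either direction. With FPKM of at least 1 in every library the counts were 7, 7, 1, 4, 10, 4 and 6, where 706 of 9859 genes were called. From here on counts within 1.5 times those first given are left out. The authors' deposited table gave 6 other patrolling and 7 Toll-like receptor genes, and 10 of 10 monocyte genes at q under 0.05 (7.3% of all genes higher, 2179 of 17744 in either direction). With ultrasound 1 alone each count was 0 apart from 1 transcription factor. Without control 1 and ultrasound 1 the counts were 11 classical, 11 other patrolling, 8 Toll-like receptor and 13 relative genes, where 34.1% of all genes were called higher and 5681 of 10655 in either direction. The median of the monocyte genes there was 2.60. Fewer libraries entered the fits that left libraries out, and the cause of the differences between settings was not tested.

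With single libraries dropped, the ranges were 0 to 9 monocyte, 0 to 10 classical, 0 to 11 other patrolling, 0 to 7 transcription factor, 0 to 14 shared myeloid, 0 to 8 Toll-like receptor and 0 to 11 relative genes, and 1.68 to 2.35 for the median of the monocyte genes and -0.040 to 0.064 for Irak1. Each list had its highest count without ultrasound 1, where limma called 5727 of 10655 genes in either direction. The counts were 0 without control 2, control 3, ultrasound 2 or ultrasound 3, where limma called 0 of all genes. The replicate numbers share no stated source, and libraries sharing a number had correlations of their deviations from the group means of -0.04, 0.05 and 0.06. The replicate block gave 0 monocyte genes. The fewest reads behind a monocyte gene were 101, for Tppp3 in control 2.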
